A study of Mus musculus with 6 samples.

Results

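Nr0b1 and 4 genes named for developmental pluripotency association, Dppa2, Dppa3, Dppa4 and Dppa5a, were followed in mouse blastocysts at rest and in activated ones. The genes were chosen by earlier results of these data, namely the differences of Nr0b1 between the groups and those of Dppa2 and Dppa3 between DOX-7g and D4-act-7g, and Dppa4 and Dppa5a joined them by name. Each was read from the brightest probeset that carries its symbol alone. Each of the 5 has 1 such probeset and no other, and all 5 passed the filter on dim genes, as 5 of 14020 genes tested. The data are 6 Mouse Gene 2.0 ST arrays, 2 per group, each made from the total RNA of 10 blastocysts. All blastocysts came from let7g-transgenic mice, so the groups used as the baseline carry the transgene too. D4-act-7g blastocysts were activated and were taken on day 4, Dor-7g blastocysts were dormant in vivo on day 7, and DOX-7g blastocysts were dormant on day 7 after induction with DOX in vitro. The study asked whether let-7, a microRNA family, induces diapause, a reversible pause of the embryo ahead of implantation.

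What each group models has limits. The labels used here give neither the promoter of the transgene nor the number of mice per pool, and nothing says whether the 2 arrays of a group hold different mice. The p-values therefore measure only the spread between these arrays, which may be technical. Day and dormancy both separate Dor-7g from D4-act-7g, and day, culture, DOX and let-7 induction all separate DOX-7g from it. These cannot be told apart within the 3 groups. Each array sums 10 whole blastocysts, so fewer cells of a type and less RNA per cell cannot be told apart either.

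Nr0b1, also known as Dax1, encodes an orphan nuclear receptor that lacks the usual DNA-binding domain and acts mostly as a repressor on other factors. In mouse embryonic stem cells it works beside Pou5f1, Nanog, Esrrb and Nr5a2, and in the adult it is known from the adrenal gland and the gonads. Dppa2 and Dppa4 encode small nuclear proteins with a SAP domain that bind chromatin together, keep developmental promoters free of DNA methylation and, in mouse embryonic stem cells, switch on genes of the 2-cell stage. Dppa3, also known as Stella, is a maternal factor that shields the egg's genome in the zygote from loss of DNA methylation and holds back Uhrf1, the partner of the maintenance methyltransferase Dnmt1. Dppa5a, also known as Esg1, encodes a KH-domain protein that binds RNA and marks pluripotent cells.

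The microRNA named in the mouse line is shown here because all 3 groups carry its transgene and DOX-7g was induced with DOX. The mature sequence is that of the mouse genome in RefSeq (GRCm38.p6, chr9:106178846-106178867, plus strand), with its seed, bases 2 to 8, in capitals.
mmu-let-7g-5p: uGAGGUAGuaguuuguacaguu
The probeset for its own gene, Mirlet7g, read between 3.20 and 3.59 log2 units on the 6 arrays, below the array's median on each. The sources used here do not say whether that probeset can bind the transgene's transcript, so it does not check the labels.

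Array medians lay between 4.62 and 4.67 log2 units on 5 arrays and at 4.87 on Dor-7g replicate 1, which also correlated least with the others, with Pearson's r over all probesets of 0.899 to 0.919. The arrays of a group correlated at 0.978 for D4-act-7g, 0.919 for Dor-7g and 0.969 for DOX-7g. Of 6 markers of the outer layer, the trophectoderm, 5 or 6 reached the array's median on each array, with Krt18 between 12.81 and 13.37, Eomes between 5.18 and 5.72, and Elf5 (4.24 to 6.52) and Tfap2c (4.67 to 5.52) below the median on some arrays. Of 6 markers of the inner cell mass 4 or 5 reached it, with Klf2 between 7.08 and 8.16 and Pou5f1 between 5.83 and 6.13. Sox2 of that list (3.60 to 3.92) was below the median on all 6 arrays, as was Esrrb (3.93 to 4.32), a factor of naive pluripotent cells outside the list. Levels are deposited log2 signals and compare one gene between arrays, not one gene with another.

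Nr0b1 stood far higher in blastocysts dormant in vivo than in activated ones, with DOX-induced blastocysts in between. It read 5.10 and 6.02 log2 units on the D4-act-7g arrays, 8.02 and 7.26 on the DOX-7g arrays and 11.64 and 11.90 on the Dor-7g arrays. The 3 groups did not overlap, and the 2 arrays of Dor-7g lay 0.25 log2 units apart. On the array scale this is a move from the 60.3 and 77.1 percentiles of all probesets in D4-act-7g to the 98.3 and 98.5 percentiles in Dor-7g.

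The difference between Dor-7g and D4-act-7g was 6.21 ± 0.39 log2 units (SE from limma, n = 2 arrays each), a fold of 74.1 with a 95% interval of 37.9 to 145. It was the second largest rise and the 8th largest difference of either sign among the 14020 genes. Between DOX-7g and D4-act-7g it was 2.09 ± 0.39, a fold of 4.24, which ranked 152nd among the rises. DOX-7g lay below Dor-7g by 4.13 ± 0.39, a fold of 17.5. Nr0b1 was put on the list for this pattern, so its values are a description and carry no p-value. Without Dor-7g replicate 1 the difference from D4-act-7g was 6.34, and without any one of the 6 arrays it lay between 5.75 and 6.67.

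**Figure D1:**
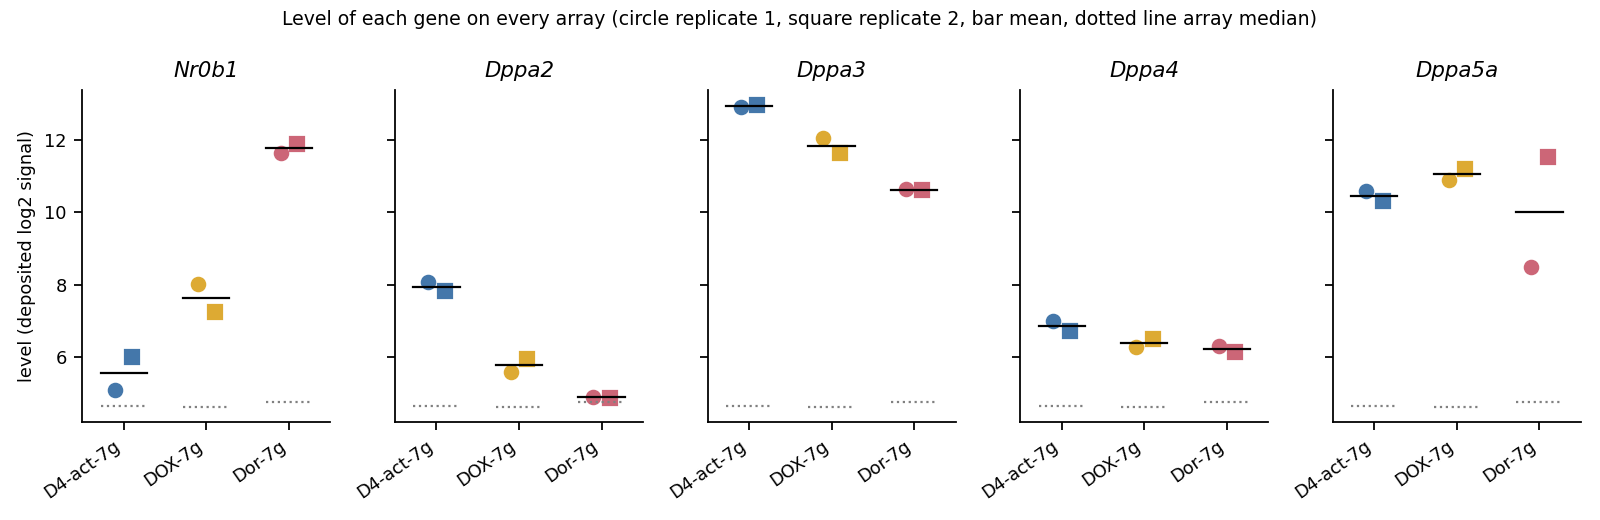
Level of each gene on each of the 6 arrays, in deposited log2 signal, by group, with circles for replicate 1, squares for replicate 2, bars for group means and dotted lines for the mean of the group's array medians. Nr0b1 lies at 5.10 and 6.02 in D4-act-7g and at 11.64 and 11.90 in Dor-7g, Dppa2 and Dppa3 lie the other way, and Dppa5a is split within Dor-7g; heights in different panels come from different probes and are not to be compared.

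The sequence around the start of Nr0b1 is printed because Nr0b1 differed most of the 5 genes between Dor-7g and D4-act-7g. The window runs from 250 bases before to 50 bases after the annotated start (RefSeq, GRCm38.p6, chrX:86191525-86191824, plus strand). Capitals mark the nuclear receptor half-site AGGTCA and the TATA box letters TATAAA.
Nr0b1 promoter: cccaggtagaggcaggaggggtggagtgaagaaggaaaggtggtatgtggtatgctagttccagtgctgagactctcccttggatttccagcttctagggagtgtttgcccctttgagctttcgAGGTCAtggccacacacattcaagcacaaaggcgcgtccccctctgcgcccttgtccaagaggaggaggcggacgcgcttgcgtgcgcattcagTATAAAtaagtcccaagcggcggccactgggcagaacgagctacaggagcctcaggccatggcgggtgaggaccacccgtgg
Both strands were searched for 4 motifs. AGGTCA was found once, on the plus strand at -126 from the start, and occurs in 16.3% of 32841 windows of the same length. TATAAA was found once, at -32, and occurs in 13.6% of windows. The longer half-site AAGGTCA, a form that Nr5a2 and Esrrb bind and which contains AGGTCA, had no exact match here and occurs in 4.72% of windows. Looser forms of it were not searched, so the window is not shown to lack a site for these factors. The Stat site TTCNNNGAA had no match either and occurs in 8.30% of windows. A match is a description of these letters and not a bound site.

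Dppa2, the first of the paired chromatin factors, ran opposite to Nr0b1. It read 8.07 and 7.84 log2 units on the D4-act-7g arrays, 5.61 and 5.96 on the DOX-7g arrays and 4.91 and 4.88 on the Dor-7g arrays. The 3 groups did not overlap, and in Dor-7g the signal lay near the array's median, at 0.03 and 0.22 above it. Dppa2 fell in Dor-7g against D4-act-7g by 3.06 ± 0.20 log2 units, a fold of 8.34 (95% interval 5.90 to 11.8; limma, adjusted p = 0.00475, lower on 2 of 2 arrays). Dppa2 and Dppa3 were chosen by their difference in DOX-7g from the same 2 D4-act-7g arrays. Their p-values in Dor-7g against D4-act-7g and in DOX-7g against Dor-7g reuse arrays of that choice and are not independent of it. In DOX-7g Dppa2 stood below D4-act-7g, with a difference of -2.17 ± 0.20, a fold of 4.50, given without a p because it was known when the genes were chosen. DOX-7g lay 0.89 ± 0.20 above Dor-7g (95% interval 0.39 to 1.39), which did not pass over all genes (limma, adjusted p = 0.182).

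Dppa4, its partner, moved far less. It read 6.99 and 6.72 on the D4-act-7g arrays, 6.28 and 6.50 on the DOX-7g arrays and 6.30 and 6.14 on the Dor-7g arrays. Both dormant groups lay below D4-act-7g without overlap, and they overlapped each other. The differences were -0.63 ± 0.20 for Dor-7g against D4-act-7g (95% interval -1.12 to -0.14; limma, adjusted p = 0.238) and -0.46 ± 0.20 for DOX-7g against D4-act-7g (-0.95 to 0.02; adjusted p = 0.482). Between DOX-7g and Dor-7g the difference was 0.17 ± 0.20 (-0.32 to 0.65; adjusted p = 0.735). A difference as large as that of Dppa2 in Dor-7g lies outside the interval for Dppa4, but the gap between the 2 genes was not itself tested.

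Dppa3, the maternal factor, fell in Dor-7g while its signal stayed high on every array. It read 12.92 and 12.96 log2 units on the D4-act-7g arrays, 12.05 and 11.63 on the DOX-7g arrays and 10.63 and 10.62 on the Dor-7g arrays. The groups did not overlap, and the 2 arrays within D4-act-7g and within Dor-7g lay 0.04 and 0.02 apart. Dppa3 fell in Dor-7g against D4-act-7g by 2.32 ± 0.20, a fold of 4.98 (95% interval 3.52 to 7.03; limma, adjusted p = 0.0109, lower on 2 of 2 arrays).

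In DOX-7g Dppa3 stood below D4-act-7g, with a difference of -1.10 ± 0.20, a fold of 2.14, again given without a p. DOX-7g lay above Dor-7g by 1.21 ± 0.20 (95% interval 0.72 to 1.71; limma, adjusted p = 0.0771), where the p again reuses arrays by which Dppa3 was chosen. That difference passed with an intensity trend in the variance model (limma, adjusted p = 0.0411) and under no other alternative run, where the adjusted p reached up to 0.345. An annotated pseudogene copy, Dppa3-ps, has no probeset of its own here, so its part in the signal cannot be told apart.

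Dppa5a, the RNA-binding member, differed within a group more than between groups. It read 10.58 and 10.33 log2 units on the D4-act-7g arrays and 10.91 and 11.20 on the DOX-7g arrays, but 8.48 on Dor-7g replicate 1 and 11.54 on Dor-7g replicate 2. The lowest and the highest value of the 6 thus both came from Dor-7g, 3.06 log2 units apart. The differences were -0.44 ± 0.92 for Dor-7g against D4-act-7g (95% interval -2.71 to 1.82; limma, adjusted p = 0.849), 0.60 ± 0.92 for DOX-7g against D4-act-7g (-1.66 to 2.87; adjusted p = 0.928) and 1.04 ± 0.92 for DOX-7g against Dor-7g (-1.22 to 3.31; adjusted p = 0.657). The model pools the spread over all groups, so the gap within Dor-7g also widens the interval for DOX-7g against D4-act-7g. Within those groups the arrays lay only 0.29 and 0.25 apart, and the groups did not overlap.

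The direction for Dppa5a in Dor-7g rested on which array was kept. Without replicate 1 it lay 1.09 above D4-act-7g (limma, adjusted p = 0.106), and without replicate 2 the difference was -1.97 (adjusted p = 0.0128). DOX-7g minus Dor-7g was -0.48 without replicate 1 (adjusted p = 0.454) and 2.57 without replicate 2 (adjusted p = 0.00673). Ooep, the next gene along the chromosome and also a KH-domain gene, read 7.25 on Dor-7g replicate 1 and 8.29 to 8.59 on the other 5 arrays. Pseudogene copies are annotated as Dppa5b and Dppa5c, neither with a probeset of its own, so the signal may be shared with them.

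Of the 4 Dppa genes tested between Dor-7g and D4-act-7g, 2 fell and none rose (limma, adjusted over all genes), where 0.984% of all genes passed, 0.742% lower and 0.243% higher. Nothing is read from that share, since both genes that fell were chosen for being low against the same D4-act-7g arrays. By arrays that do not overlap, 3 of the 4 Dppa genes were lower and Nr0b1 was higher, where 45.8% of all genes did not overlap, 21.5% lower and 24.3% higher. Nr0b1, Dppa2 and Dppa3 were chosen by differences from these D4-act-7g arrays, so nothing is read from that count either. Between DOX-7g and D4-act-7g, Dppa4 and Dppa5a were tested and 0 of 2 passed, with 0 at an unadjusted p under 0.05, where 0.956% of all genes passed, 0.706% higher and 0.250% lower. All 5 genes were free of overlap there, Nr0b1 and Dppa5a higher and the other 3 lower, as were 49.7% of all genes, 19.2% higher and 30.5% lower. For Nr0b1, Dppa2 and Dppa3 this very difference was used in the choice, so the count of 5 is not set against that share. Between DOX-7g and Dor-7g, 0 of the 4 Dppa genes passed in limma, with Dppa2 and Dppa3 under 0.05 unadjusted and Dppa3 past the threshold with the intensity trend, where 1.16% of all genes passed, 1.04% higher and 0.121% lower. By overlap, Dppa2 and Dppa3 were higher and Nr0b1 lower in DOX-7g, 3 of 5 genes, where 41.7% of all genes did not overlap, 15.0% higher and 26.7% lower. These 3 genes were chosen with their DOX-7g values in view, so nothing is read from either count in this comparison. In limma an unadjusted p under 0.05 was reached by 1998 of the 14020 genes in Dor-7g against D4-act-7g. It was reached by 1544 in DOX-7g against D4-act-7g and by 1624 in DOX-7g against Dor-7g.

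DOX-7g lay between the other groups, with no overlap on either side, for 3 of the 5 genes. The levels of Nr0b1 go up in the order D4-act-7g, DOX-7g, Dor-7g, as do those of 2.55% of all genes, and the levels of Dppa2 and Dppa3 go down in that order, as do those of 3.62%. Nr0b1 was chosen with all 3 levels known, and Dppa2 and Dppa3 with the D4-act-7g and DOX-7g levels known, so nothing is read from these shares. Both dormant groups are set against the same 2 D4-act-7g arrays.

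The calls for Dppa2 and Dppa3 depended on both D4-act-7g arrays. Without D4-act-7g replicate 1 the adjusted p in limma was 0.0724 for Dppa2 and 0.125 for Dppa3, and without replicate 2 it was 0.0566 and 0.109. The differences themselves moved little, to between -3.17 and -2.95 for Dppa2 and between -2.33 and -2.30 for Dppa3. With either D4-act-7g array left out, 15 and 11 genes passed in all instead of 138. Without Dor-7g replicate 1, the array that stood apart, both calls held (limma, adjusted p = 0.0143 and 0.0248).

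**Figure D2:**
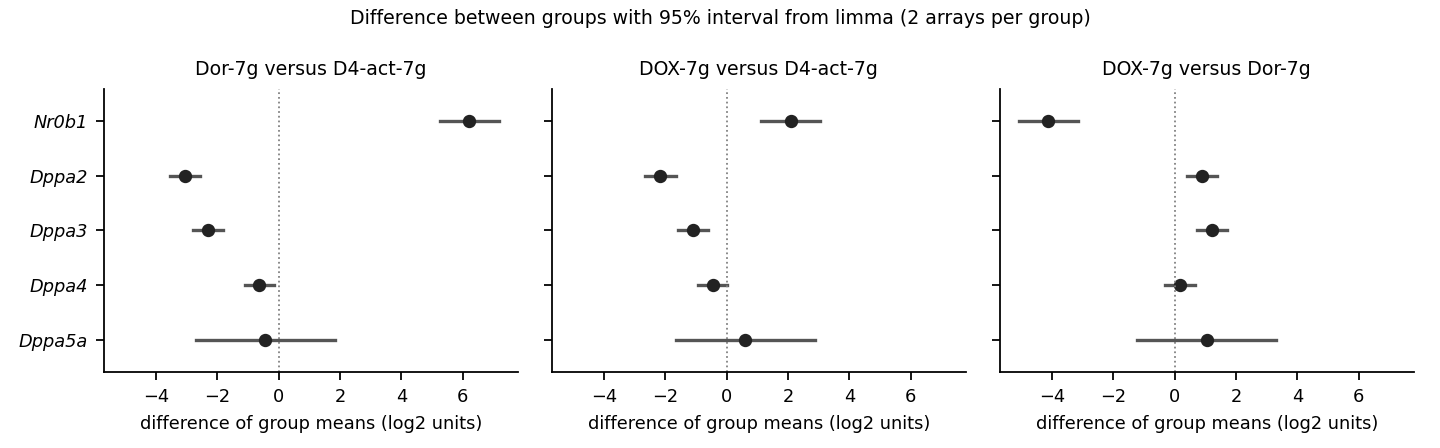
Difference of group means in log2 units for each gene in each of the 3 comparisons, with the first group minus the second, points for the estimate and lines for limma's 95% interval (2 arrays per group, intervals not adjusted over genes). Nr0b1 lies at 6.21, 2.09 and -4.13, Dppa2 and Dppa3 lie below 0 in both comparisons with D4-act-7g, and the intervals of Dppa5a span 0 in all 3. Each gene's intervals use a spread pooled over all groups, which for Dppa5a holds the gap within Dor-7g.

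**Figure D3:**
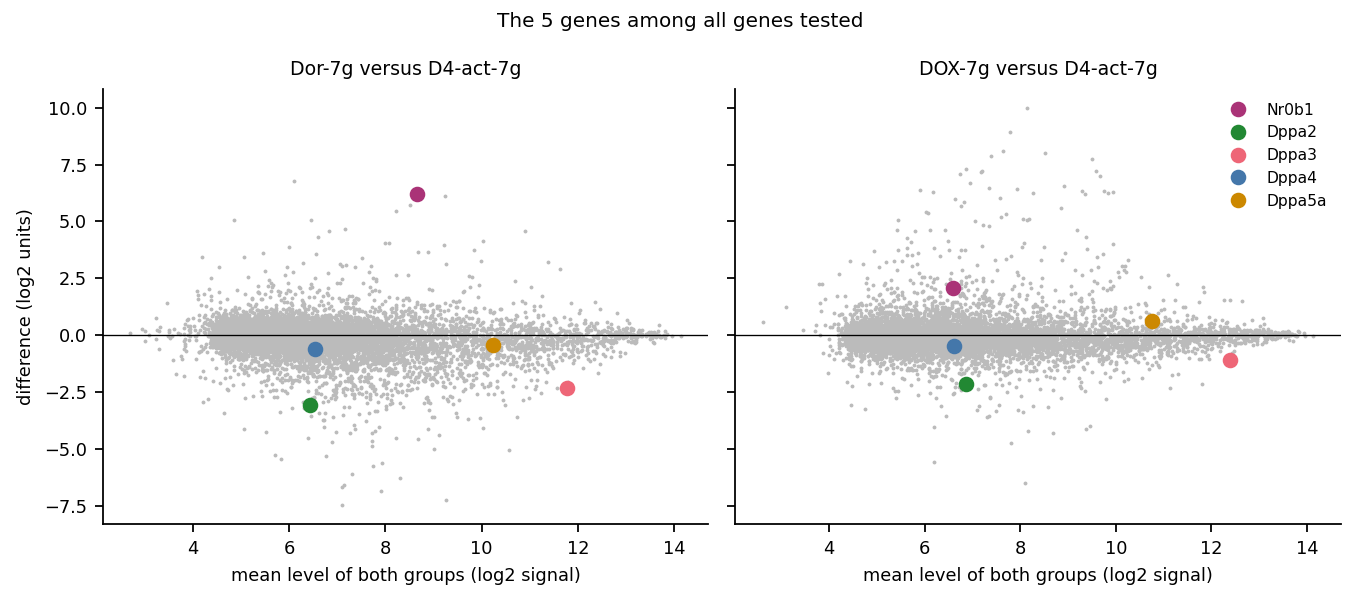
Difference in log2 units against the mean level of both groups in log2 signal, for the 14020 genes tested (grey) and the 5 genes (coloured), for Dor-7g and for DOX-7g against D4-act-7g. Nr0b1 at 6.21 sits among the largest rises in Dor-7g, whereas in DOX-7g its 2.09 ranks 152nd among the rises.

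The genes with the pattern most like Nr0b1 were Ubd, S100a1, Cox8b, Mlana and Epp13. Likeness was measured as the root mean square difference of log2 values over the 6 arrays after each gene's own mean was taken off. Genes with predicted names (Gm, Rik or LOC), pseudogenes, microRNAs and small nucleolar RNAs were left out, here and for Dppa2. Ubd, a ubiquitin-like gene, was closest at 0.80 log2 units (Pearson's r = 0.98 over 6 arrays in 3 groups). It read 4.85 and 4.24 in D4-act-7g, 6.25 and 5.42 in DOX-7g and 9.0 and 9.23 in Dor-7g. S100a1, a calcium-binding protein gene, followed at 1.08 (r = 0.93), then Cox8b, of the respiratory chain, at 1.17 (r = 0.90), Mlana at 1.28 (r = 0.94) and Epp13 at 1.29 (r = 0.91). Cox8b shared the high level of Dor-7g but not the middle level of DOX-7g, where it read 4.26 and 4.76 against 4.35 and 4.54 in D4-act-7g.

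The pattern of Dppa2 had closer company. Lgals9, a galectin gene, lay at 0.20 log2 units from it (r = 0.99), Pdxk, the vitamin B6 kinase gene, at 0.23 (r = 0.98), Otud6b, a deubiquitinase gene, at 0.26 (r = 0.99), Nfatc2ip at 0.30 (r = 0.97) and Calcoco2, an autophagy receptor gene, at 0.31 (r = 0.97). Lgals9 read 8.98 and 8.92 in D4-act-7g, 6.96 and 7.05 in DOX-7g and 6.09 and 6.40 in Dor-7g. These correlations are descriptions over 6 arrays that fall into 3 groups and carry no p.

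**Figure D4:**
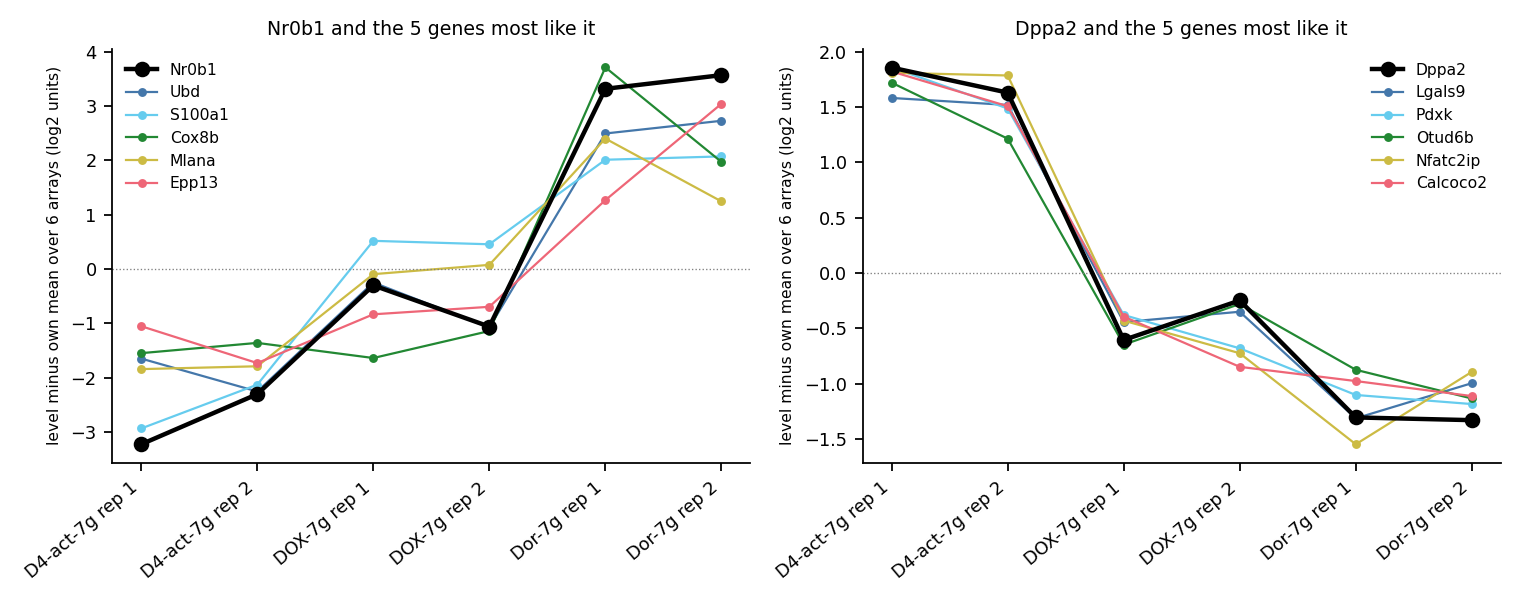
Level minus the gene's own mean over 6 arrays, in log2 units, on each array for Nr0b1 (left, black) and Dppa2 (right, black) and the 5 genes most like each (coloured); lines only join the points of a gene. The 5 genes on the right lie 0.20 to 0.31 log2 units from Dppa2 by root mean square, and the 5 on the left lie 0.80 to 1.29 from Nr0b1. Genes with predicted names, pseudogenes, microRNAs and small nucleolar RNAs were left out of the search.

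Apart from Dppa2 beside Dppa4, none of the measured genes next to the 5 on their chromosomes passed the threshold in Dor-7g against D4-act-7g in limma. Dppa4 and Dppa2 are neighbours, and Morc1, a germ-line gene on the far side of Dppa2, differed by 0.21 ± 0.30 in Dor-7g against D4-act-7g (limma, adjusted p = 0.771). Dppa3 lies between Gdf3, a growth factor gene of pluripotent cells, and Nanog. Gdf3 differed by -0.49 ± 0.34 (adjusted p = 0.563) and Nanog by -0.22 ± 0.23 (adjusted p = 0.686) in limma for the same comparison. In DOX-7g against D4-act-7g these were -1.09 ± 0.34 (adjusted p = 0.320) and -0.29 ± 0.23 (adjusted p = 0.793). The neighbours of Nr0b1, Samt3, Mageb4, Il1rapl1 and 5430427O19Rik, were too dim to be tested, with Mageb4 at 4.27 to 5.15 and Il1rapl1 at 2.81 to 3.32 on the 6 arrays.

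The known partners and regulators of Nr0b1 showed no change past the threshold. Of 16 listed genes 13 were measured, and in limma 0 passed in each of the 3 comparisons, with 0, 1 and 2 under an unadjusted p of 0.05. Over all 14020 genes, 1998, 1544 and 1624 were under it in the same order, which is the background for every list below too. The list's median difference was -0.06 for Dor-7g against D4-act-7g, -0.04 for DOX-7g against D4-act-7g and -0.15 for DOX-7g against Dor-7g, beside 0.06, -0.05 and -0.11 over all genes. Klf4, a naive pluripotency factor, differed by 0.65 ± 0.28 in Dor-7g against D4-act-7g (limma, adjusted p = 0.377). It read 7.25 on Dor-7g replicate 1 and 6.48 on replicate 2, and without replicate 2 it passed (1.03, adjusted p = 0.0343). Tfcp2l1 differed by -0.80 ± 0.32 there (adjusted p = 0.352) and by -0.65 ± 0.32 in DOX-7g (adjusted p = 0.573).

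Nr0b2, the closest relative of Nr0b1, took another course. It read 5.33 and 5.98 in D4-act-7g, 5.76 and 5.26 on the Dor-7g arrays and 6.54 and 7.10 in DOX-7g, so only the DOX-7g arrays lay above the D4-act-7g range. The difference from D4-act-7g was 1.17 ± 0.33 (limma, adjusted p = 0.264) and that from Dor-7g 1.31 ± 0.33 (adjusted p = 0.221). Of 32 other nuclear receptors 25 were measured, and in limma 0 passed in any of the 3 comparisons, with 2, 1 and 3 under an unadjusted p of 0.05. Their differences ran from -0.53 to 1.11 in Dor-7g against D4-act-7g, with Nr2f1 at the top (1.11 ± 0.22, adjusted p = 0.108), Esr1, the oestrogen receptor gene, at 0.59 ± 0.19 (adjusted p = 0.247), and a median of 0.14. Without Dor-7g replicate 1 Nr2f1 passed (1.36, adjusted p = 0.0435). In DOX-7g against D4-act-7g they ran from -0.54 (Rarb) to 0.52 (Nr2f1), with a median of 0.03, and in DOX-7g against Dor-7g the median was -0.13.

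Cofactors of nuclear receptors had no call either. Of 12 listed 8 were measured and in limma 0 passed in any comparison, with 0 under an unadjusted p of 0.05 in each. Med1, a Mediator subunit, differed by -0.38 ± 0.22 and Nrip1, a corepressor, by 0.34 ± 0.17 in Dor-7g against D4-act-7g (limma, adjusted p = 0.485 and 0.425). In DOX-7g against D4-act-7g Ncoa1 differed by -0.24 ± 0.23 and Tbl1x by 0.24 ± 0.23 (adjusted p = 0.843 and 0.846).

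Around Dppa3, 13 of 16 genes of DNA methylation and its removal were measured. In limma 0 passed in each comparison, with 1, 2 and 1 under an unadjusted p of 0.05, and the medians were 0.00, -0.05 and -0.16. Uhrf1, which Dppa3 holds back, differed by 0.03 and Dnmt1 by -0.27 in Dor-7g against D4-act-7g. Those 2 genes were named for their known tie to Dppa3. Mbd3, of the NuRD repressor complex, differed by -0.54 ± 0.19 (limma, adjusted p = 0.291) and Uhrf2 by 0.44 ± 0.20 (adjusted p = 0.390). In DOX-7g the methylcytosine oxidase genes Tet1 and Tet2 differed from D4-act-7g by -1.06 ± 0.34 and -1.06 ± 0.27 (limma, adjusted p = 0.319 and 0.208).

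Germ-line genes that DNA methylation holds silent in somatic cells were read as a list of 16, of which 11 were measured. In Dor-7g against D4-act-7g 1 fell and none rose in limma, where 0.742% of all genes fell and 0.243% rose. The list's median was -0.35, beside 0.06 over all genes. Mael, a gene of the piRNA pathway, read 7.47 and 6.87 in D4-act-7g, 7.95 and 7.60 in DOX-7g and 4.99 and 4.83 in Dor-7g. Both Dor-7g arrays lay below all others, with a difference from D4-act-7g of -2.26 ± 0.26 (limma, adjusted p = 0.0262), and DOX-7g was higher than Dor-7g by 2.86 ± 0.26 (adjusted p = 0.00953). Leaving out any one D4-act-7g array (differences of -1.96 and -2.56) or DOX-7g array (-2.26 each) ended the first call, and leaving out either DOX-7g array (2.69 and 3.04) ended the second. In DOX-7g against D4-act-7g 0 of the 11 passed in limma, with 2 under an unadjusted p of 0.05, and the median was -0.11.

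The KH-domain relatives of Dppa5a and other genes of the maternal complex gave 6 measured of 10. In limma 0 passed in each comparison, with 1, 2 and 1 under an unadjusted p of 0.05, and the medians were -0.49, -0.41 and 0.24. Khdc3, a maternal KH-domain gene, read 8.86 and 8.73 in D4-act-7g, 7.44 and 7.28 on the Dor-7g arrays and 7.36 and 7.78 in DOX-7g, with no overlap between either dormant group and D4-act-7g. Its differences were -1.44 ± 0.21 (limma, adjusted p = 0.0538) and -1.23 ± 0.21 (adjusted p = 0.0846). The first passed with each array centred on its median (adjusted p = 0.0373) and without Dor-7g replicate 2 (0.0384), and the second with array weights (0.0252). Khdc1b differed by -0.82 ± 0.43 in Dor-7g (adjusted p = 0.453), and without Dor-7g replicate 1 it passed (-1.48, adjusted p = 0.0454).

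The wider list of naive pluripotency and epiblast genes had 26 of 30 measured. In limma 0 passed in each comparison, with 2, 5 and 4 under an unadjusted p of 0.05, and the medians were 0.00, -0.25 and -0.18. Over all 14020 genes 1998, 1544 and 1624 were under it, and the medians were 0.06, -0.05 and -0.11. Dppa1, the remaining gene of the Dppa name, read 11.47 and 11.62 in D4-act-7g, 12.25 and 12.75 on the Dor-7g arrays and 12.37 and 12.33 in DOX-7g. It was above D4-act-7g in both dormant groups without overlap, by 0.95 ± 0.22 (limma, adjusted p = 0.147) and 0.80 ± 0.22 (adjusted p = 0.248). Utf1 differed by -0.69 ± 0.19 in Dor-7g (adjusted p = 0.199). Fbxo15 read 3.68 on Dor-7g replicate 1 and 7.27 on replicate 2, and Zfp42 differed by -1.41 ± 0.43 in DOX-7g against Dor-7g (limma, adjusted p = 0.316). Both passed in DOX-7g against Dor-7g when Dor-7g replicate 2 was left out, at 5.10 and -1.97 (adjusted p = 0.00325 and 0.0484).

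Transcripts of the 2-cell stage, which Dppa2 and Dppa4 switch on in mouse embryonic stem cells, rose in DOX-7g against D4-act-7g for 9 of 14 measured genes (limma), where 0.706% of all genes rose. The list was drawn up with earlier results of these data known, so nothing is read from that share. Zscan4b, Zscan4e, Tcstv1 and Usp17lc also needed the DOX-7g arrays, where they were high, to pass the filter on dim genes. The list's median was 4.35, while Dppa2 and Dppa4 differed by -2.17 and -0.46 in the same comparison. In Dor-7g against D4-act-7g 1 of the 14, the dim Usp17lc, fell (-1.71 ± 0.23, limma, adjusted p = 0.0432), where 0.742% of all genes fell. That call was lost under 9 of 16 alternatives. The list's median there was 0.02, beside 0.06 over all genes.

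**Figure D5:**
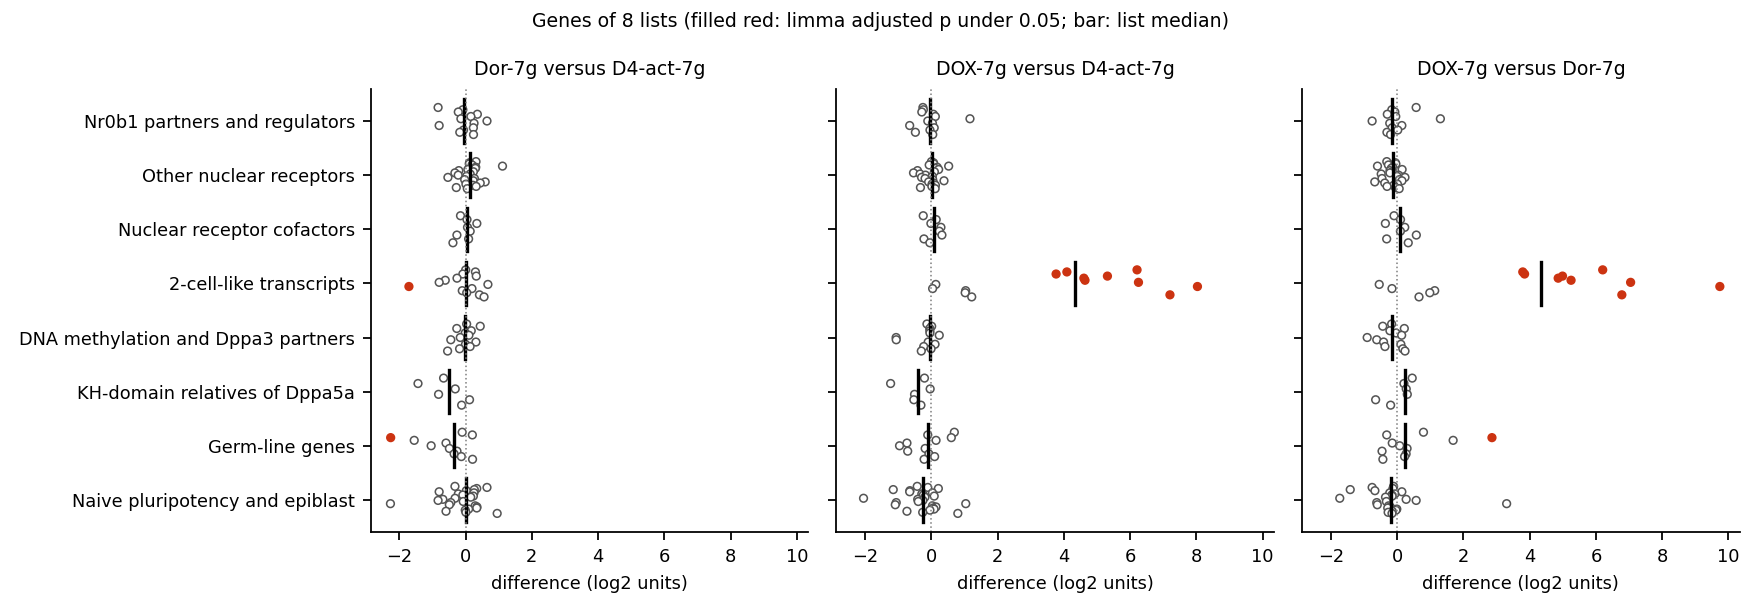
Difference in log2 units of every measured gene of 8 lists in each of the 3 comparisons, with red filled points for genes past limma's adjusted p threshold of 0.05, open points for the others and a bar at the list's median. Outside the 2-cell-like transcripts, with 9 red points in both comparisons of DOX-7g, only Mael is red in any list.

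Markers of other cells were read beside these results. Of 5 markers of steroid-making cells, the adult site of Nr0b1, the mean level lay between 4.03 and 4.19 in D4-act-7g, 4.22 and 4.39 on the Dor-7g arrays and 4.07 and 4.20 in DOX-7g, below the array's median on every array. Of the 5, 1 or 2 reached the median on each array: Nr5a1 (4.85 to 5.26) on all 6, whereas Cyp17a1 and Hsd3b1 were below it on all 6. Of 5 uterine stroma markers the mean level was 6.13 on Dor-7g replicate 2, against 4.61 to 5.00 on the other 5 arrays. Dcn read 9.29 on Dor-7g replicate 2 and 3.67 to 4.22 on the other 5 arrays. Lum was also highest on Dor-7g replicate 2, at 5.01. Col1a1, Col1a2 and Pgr were lower on that array than on Dor-7g replicate 1. Nr0b1 read 11.64 and 11.90 on the Dor-7g replicates 1 and 2, and the part of these markers in its level was not tested. The 4 uterine epithelium markers on the array averaged 6.16 and 6.20 in D4-act-7g, 6.59 and 6.80 on the Dor-7g arrays and 6.65 and 6.73 in DOX-7g.

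The 3 blood markers on the array averaged 3.78 and 3.83 in D4-act-7g, 4.51 and 5.73 on the Dor-7g arrays and 7.83 and 8.07 in DOX-7g, carried by the neutrophil genes S100a8 and S100a9, while Ptprc, a gene of all white blood cells, was below the array's median on all 6 arrays. Nr0b1 and the mean of these markers were both higher in Dor-7g and in DOX-7g than in D4-act-7g. Between DOX-7g and Dor-7g they differed in opposite directions, with Nr0b1 lower in DOX-7g. The part of these markers in the results was not tested. The 4 oocyte and cumulus markers averaged 5.51 and 5.91 in D4-act-7g and 5.11 to 5.19 on the dormant arrays, with Zp3, of the egg coat, at 8.15 and 7.35 in D4-act-7g and 5.69 to 6.59 on the others. Of the 4, Zp3 alone had both D4-act-7g arrays above all others; Gdf9 read 6.17 and 6.29 in D4-act-7g and 5.93 to 6.25 on the others, and 0 of the 2 measured genes passed in limma, with 1 under an unadjusted p of 0.05 in each comparison with D4-act-7g. Zp3 moved with Dppa2 and Dppa3, and its part in those differences was not tested. The 6 inner cell mass markers averaged 5.43 and 5.86 in D4-act-7g, 5.32 and 5.78 on the Dor-7g arrays and 5.11 and 5.16 in DOX-7g. Tdgf1 of that list read 5.91 and 4.86 in D4-act-7g and 3.36 and 3.32 in DOX-7g. Its other measured genes differed by -0.43 (Klf2) to -0.19 (Fgf4) between those groups. The 6 trophectoderm markers averaged 2.71 to 3.34 log2 units above the array's median. In log2 level, with no median taken off, the 5 primitive endoderm markers averaged 6.07 to 6.39 and the 4 germ cell markers 5.19 to 5.76. These levels are not on the scale of the trophectoderm values.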

How the data were processed

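The deposited table holds 1 log2 value per probeset and array, 41345 probesets on 6 arrays. Partek 6.6 and RMA made these log2 values, per the submitters' processing notes, which give no roles or settings; RMA corrects background, normalizes arrays and summarizes probes. No source used here names the authors' genome build. Depth does not apply, and the number of arrays limits the precision.

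Sample titles gave the groups. Gene names came from the platform annotation, updated by Entrez identifier in a RefSeq table of GRCm38.p6, used for names and neighbours: 23521 carry 1 symbol, 1814 several and 16010 none here, and 193 identifiers were unmatched. A probeset was kept where 2 or more of 6 arrays reached the array's median, and the brightest stood for its gene, which left 14020 genes. One limma model (limma 3.58.1, R 4.3.3) took all 6 arrays with a mean for each group, followed by eBayes (3 residual and 2.81 prior degrees of freedom). p-values were adjusted by Benjamini-Hochberg over all genes, with a threshold of 0.05. The fit was run on simulated arrays with independent noise and planted differences, which checks the code and not whether the arrays of a group are independent.

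Members and lists were chosen with earlier results of these data known. No p is given for Nr0b1, nor for Dppa2 and Dppa3 in DOX-7g versus D4-act-7g, whose values were in view. Named genes are the 5 members, the called genes of each list (up to 4) or otherwise its 2 smallest p, the 5 most like Nr0b1 and Dppa2, and neighbours; not all are printed. Uhrf1, Dnmt1 and the marker genes fall outside that rule and were named after their values were seen. Alternatives covered normalization, filters, probeset rule, variance model, array weights, replicate block, arrays in the fit and leaving out each array.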

Additional observations from a re-analysis of the deposited data

How the results depend on the processing

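Over 16 alternatives, Nr0b1 kept its direction, between 5.75 and 6.67 in Dor-7g against D4-act-7g, 1.62 and 2.55 in DOX-7g against D4-act-7g and -4.51 and -3.75 in DOX-7g against Dor-7g. Leaving out an array moved Dppa2 in Dor-7g against D4-act-7g between -3.17 and -2.95 and Dppa3 between -2.33 and -2.30, with both calls lost without either D4-act-7g array. It moved Dppa5a between -1.97 and 1.09 there and between -0.48 and 2.57 in DOX-7g against Dor-7g. Dppa3 in DOX-7g against Dor-7g, 1.21, passed with an intensity trend (adjusted p = 0.0411). The other tested results of the 5 genes stayed on their side of the threshold under all 16.

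Genes called in Dor-7g against D4-act-7g numbered 138, and 79 with array weights, 82 with the replicate block, 86 in a fit of only those groups and 11 to 1172 (without Dor-7g replicate 2) with an array left out. In DOX-7g against D4-act-7g they were 134, and 461 with weights, 296 in a fit of only those groups and 43 to 296 with an array left out. In DOX-7g against Dor-7g they were 163, and 104, 86 and 67 to 880. The replicate block changed no call of the 5 genes (limma, adjusted p = 0.0203 for Dppa2 and 0.0335 for Dppa3 in Dor-7g). Deviations of same-numbered arrays correlated at -0.02, -0.01 and -0.14 over the genes, so no effect shared by same-numbered arrays was seen. This cannot tell whether such arrays were collected or handled together, which the titles do not state. Centring each array on its median moved the median of all genes by -0.13 in Dor-7g against D4-act-7g (27 higher and 128 lower), by 0.00 in DOX-7g against D4-act-7g and by 0.13 in DOX-7g against Dor-7g. Among list genes, Tbl1x lay between -0.0072 and 0.49 in DOX-7g against D4-act-7g with a D4-act-7g array left out, and Ooep between -0.21 and 1.12 in DOX-7g against Dor-7g with a Dor-7g array left out. The cause of these moves was not tested. Dppa2 in Dor-7g lay near the array's median, where its signal over background is not known.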
